A study of Mus musculus with 6 samples.

Results

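The genes of the basement membrane, the thin sheet of extracellular matrix on which epithelia, vessels, muscle fibres and nerves rest, were examined in embryonic mouse nasomaxillary tissue taken at E17.5. They were taken by symbol, as a list of 31 genes for collagen IV, laminin chains, nidogens, basement membrane proteoglycans, anchoring collagens, the Fras/Frem complex and matrix receptors. The list was chosen with earlier results of these data known. All 31 were among the 24346 gene symbols of each library, and 29 of them had a mean of at least 1 FPKM (fragments per kilobase of transcript, scaled to library size) and entered the test. The nasomaxillary complex is the block of nose and upper jaw, with cartilage, bone, surface and nasal epithelium, vessels, muscle and nerve. Of 6 messenger RNA libraries, 3 were mutant (Wnt1-Cre:Pth1r f/f, a floxed parathyroid hormone receptor gene with a Cre transgene that acts in neural crest cells) and 3 were control (Pth1r f/f without Cre). Both groups carried the floxed allele and were untreated. An effect of the transgene itself cannot be told apart from loss of the receptor, and epithelium, endothelium and muscle fibres do not come from the cranial neural crest in which this Cre acts. Whether each library is a separate embryo is not given, and p-values cover no more than the variation among these 6 libraries, which may be partly technical.

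A basement membrane is built from a laminin network anchored to cell surfaces and a collagen IV network, which nidogens and the heparan sulfate proteoglycan perlecan link together. Laminins are trimers of an alpha, a beta and a gamma chain, and the alpha chain largely decides which receptors bind. Chains differ by tissue. In skin and oral epithelium a laminin with the chains of Lama3 and Lamb3, together with collagens VII and XVII and the integrin of Itga6 and Itgb4, fastens basal cells to the dermis. In vessels, muscle and nerve the chains of Lama2, Lama4, Lamb1, Lamb2 and Lamc1 are the usual ones.

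The libraries were of similar size, with an estimated 8200000 to 12600000 fragments in mutant and 11500000 to 13600000 in control libraries, the shallowest being mutant replicate 3. Pth1r itself measured 75.1 ± 4.73 FPKM in mutant and 68.0 ± 11.1 FPKM in control libraries (SD, n = 3 each); the labels do not give the floxed part of the gene, so this level does not check the genotype. Xist, the RNA of the inactive X chromosome of females, was at 77.1, 0.0263 and 0.0295 FPKM in mutant replicates 1 to 3 and at 74.1 to 74.4 FPKM in all controls, so the groups differed in sex as well as genotype. Cartilage and bone markers of the labelled tissue were present throughout, with Col1a1 at 3871 ± 263 FPKM and Ibsp at 895 ± 108 FPKM in mutant and 4847 ± 683 and 953 ± 187 FPKM in control libraries. All 5 bone markers had negative changes, 2 with an unadjusted limma p under 0.05 (40%, against 11.3% of all tested genes) and 0 called. The widest was Bglap, at 5.61 ± 1.74 FPKM in mutant and 17.6 ± 9.26 FPKM in control libraries. The cartilage markers Col2a1, Acan, Matn1 and Col9a1 fell in mutant libraries, with log2 changes of -1.99, -1.31, -2.68 and -1.68 (limma adjusted p = 0.0267, 0.0266, 0.0121 and 0.0450). They ran from -2.27 to -1.63, -1.54 to -1.13, -3.005 to -2.203 and -1.97 to -1.32 over the alternatives, and no longer passed adjustment with any of the 3 covariates, without mutant replicate 1 or without any 1 control library. Together these genes lost the call in 39 of the alternative fits, so some losses also fell under other alternatives. Of 6 adipocyte markers 3 were tested and none was called, with Fabp4 at 37.8 ± 8.43 FPKM in mutant and 30.9 ± 6.10 FPKM in control libraries, and Lpl at 14.3 ± 2.497 FPKM in mutant and 9.14 ± 0.614 FPKM in control libraries. The untested Adipoq, Plin1 and Cidec had means of 0.121, 0.035 and 0.130 FPKM in mutant and 0.203, 0 and 0.152 in control libraries.

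None of the 29 tested members passed an adjusted p under 0.05 in limma's moderated test of log2(FPKM + 1), in either direction. Over all 14766 tested genes 0.0610% passed as higher in mutant libraries and 0.203% as lower, together 0.264%. The smallest adjusted p of a member was 0.177, for Col4a6. At an unadjusted p under 0.05 there were 8 members, 6 higher (background 5.35%) and 2 lower (background 5.96%), or 27.6% of the members against 11.3% of all tested genes. Groups did not overlap for 12 members, with all mutant libraries above in 10 (background 7.85%) and all below in 2 (background 9.16%), or 41.4% against 17.0% of all tested genes. The log2 changes of the members ran from -0.38 to 0.48 with a median of 0.13, 22 of them positive, against a median of -0.0020 over all tested genes. The 95% intervals of the changes, 1 gene at a time, lay between -0.66 and 0.84, so a doubling or halving on this scale was outside the interval of every tested member. Without mutant replicate 2 the median was 0.062 (18 positive, 11 negative) and without control replicate 3 it was 0.080. It was 0.0091 with the mean of surface epithelium markers as a covariate and 0.0047 with that of skeletal muscle markers, each with 15 positive and 14 negative changes. The count of 8 became 1 with sex as a covariate, 0 with the epithelial covariate and 8 (3 higher, 5 lower) with the muscle covariate. Over all 14766 tested genes the count of 1670 became 759, 603 and 1700 in the same order.

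**Figure D1:**
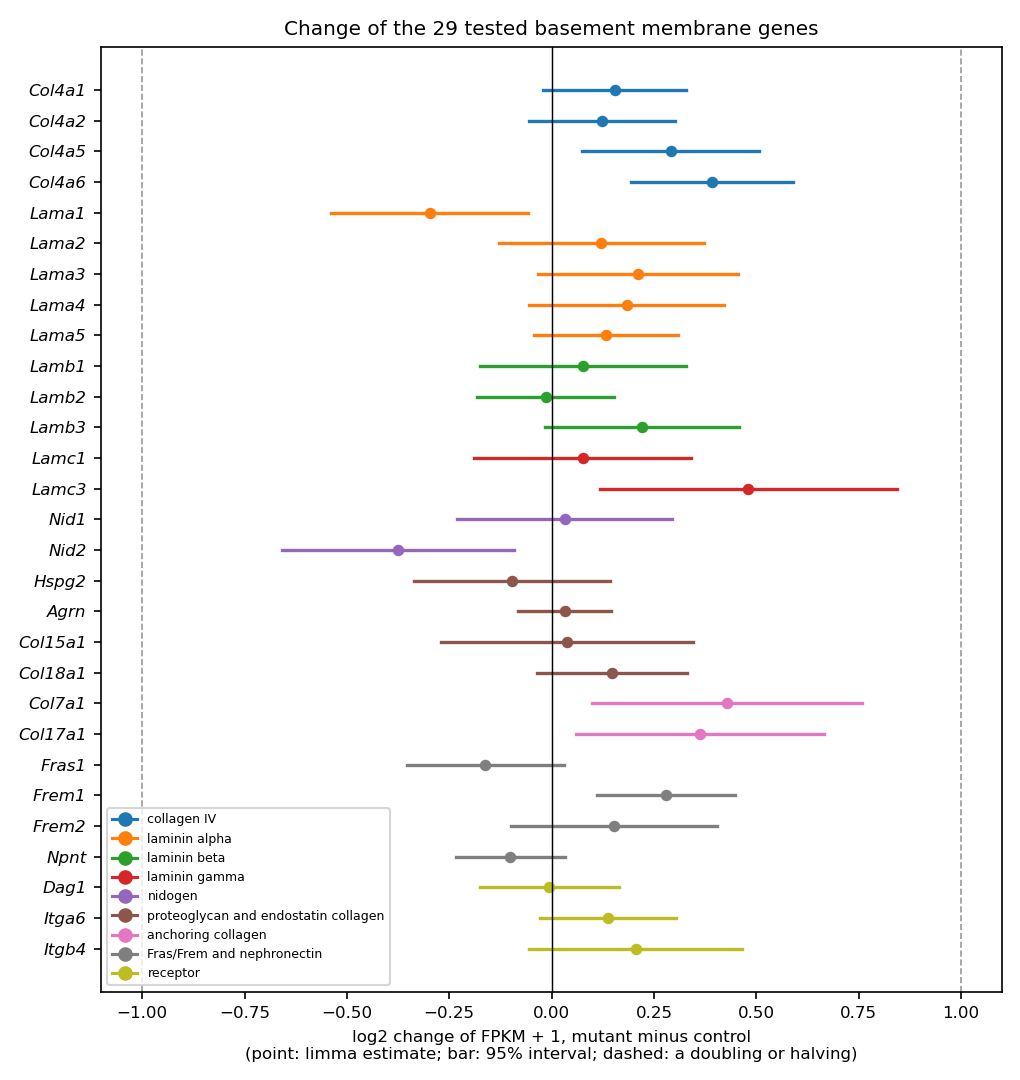
Log2 change of FPKM + 1, mutant minus control, for the 29 tested basement membrane genes, coloured by role; points are limma estimates and bars are 95% intervals, n = 3 libraries per group. All intervals lie inside the dashed lines at a doubling and a halving, from -0.66 for Nid2 to 0.84 for Lamc3.

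The members spanned a wide range of abundance per length of transcript. On the FPKM scale 20 had a mean over 10, 9 lay between 1 and 10 and 2 lay below 1. Collagen IV alpha 1 and alpha 2 led, followed by Agrn, Npnt and Hspg2. The summed level of the 31 genes was 1201 to 1401 FPKM in mutant and 1157 to 1271 FPKM in control libraries, and these ranges overlapped.

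**Figure D2:**
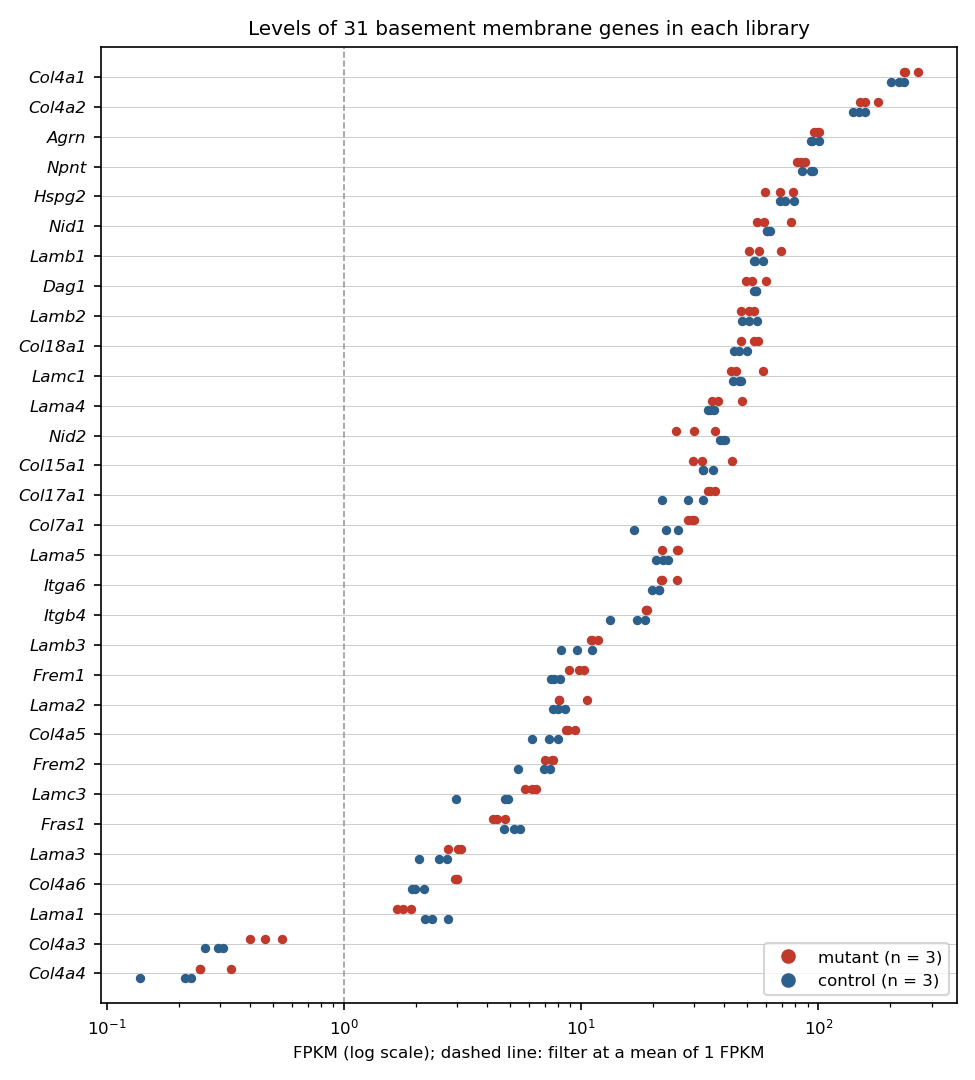
FPKM of all 31 basement membrane genes on a log axis, ordered by mean, with each dot a library (mutant above, control below in each row). The means run from 0.234 FPKM for Col4a4 to 229 FPKM for Col4a1, and the dashed line marks the filter at 1 FPKM.

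Collagen IV, the network-forming collagen, is made as trimers of alpha 1 and alpha 2 in nearly all basement membranes, with the alpha 3 to alpha 6 chains added in specialised ones such as kidney glomerulus, lens and parts of the skin. Its 6 genes lie as head-to-head pairs that read away from each other, and their promoters are shown because 2 of these pairs were compared within each library. The sequences are RefSeq windows on GRCm38.p6 from 250 bases before to 50 bases after each annotated start, in the gene's own direction. Col4a1 is at chr8:11312777-11313076 (minus strand) and Col4a2 at chr8:11312555-11312854 (plus strand), and capitals mark the 78 bases that both windows hold, on opposite strands. Col4a5 is at chrX:141475169-141475468 (plus strand) and Col4a6 at chrX:141474027-141474326 (minus strand), and capitals there mark the letters GGGCGG or their reverse complement.
Col4a1: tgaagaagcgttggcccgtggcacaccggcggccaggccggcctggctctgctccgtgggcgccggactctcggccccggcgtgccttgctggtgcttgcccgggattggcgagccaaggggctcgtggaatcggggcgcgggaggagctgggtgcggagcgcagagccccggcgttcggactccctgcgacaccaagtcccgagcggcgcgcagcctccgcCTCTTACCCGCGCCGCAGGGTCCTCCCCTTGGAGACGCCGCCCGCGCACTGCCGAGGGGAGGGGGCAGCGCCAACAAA
Col4a2: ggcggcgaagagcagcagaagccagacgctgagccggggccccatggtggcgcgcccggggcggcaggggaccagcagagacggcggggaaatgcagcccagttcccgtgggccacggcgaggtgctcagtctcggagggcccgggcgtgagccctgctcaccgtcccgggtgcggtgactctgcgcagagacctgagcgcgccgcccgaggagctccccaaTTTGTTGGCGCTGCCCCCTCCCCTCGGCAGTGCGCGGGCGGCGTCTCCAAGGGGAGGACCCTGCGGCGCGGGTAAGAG
Col4a5: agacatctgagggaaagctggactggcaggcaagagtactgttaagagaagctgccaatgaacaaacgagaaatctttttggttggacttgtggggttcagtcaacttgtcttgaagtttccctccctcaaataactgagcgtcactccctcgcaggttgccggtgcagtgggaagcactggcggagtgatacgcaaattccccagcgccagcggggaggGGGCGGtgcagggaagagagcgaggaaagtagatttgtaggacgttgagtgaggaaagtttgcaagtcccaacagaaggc
Col4a6: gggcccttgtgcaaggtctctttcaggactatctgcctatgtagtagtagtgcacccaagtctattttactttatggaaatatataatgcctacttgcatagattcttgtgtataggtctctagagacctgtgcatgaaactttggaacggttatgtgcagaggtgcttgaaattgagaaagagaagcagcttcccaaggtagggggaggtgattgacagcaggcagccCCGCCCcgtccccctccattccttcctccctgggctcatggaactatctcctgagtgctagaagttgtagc
The annotated starts of Col4a1 and Col4a2 are 21 bases apart, with 22 bases of exon on opposite strands in common, and those of Col4a5 and Col4a6 are 1343 bases apart. The letters GGGCGG (the GC box, either strand) occur in all 4 windows, in 59.3% of the 27 member promoters found in the table and in 35.7% of all 32851 promoters. CCAAT was found in the windows of Col4a1, Col4a2 and Col4a5, in 44.4% of the member promoters and in 37.4% of all, and TATAAA in 3.7% and 13.6%. These matches describe letters in a window and do not locate a bound site.

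Col4a1 (chromosome 8, 11198423 to 11312826, GRCm38) measured 229, 263 and 231 FPKM in mutant replicates 1 to 3, against 229, 219 and 201 FPKM in control replicates 1 to 3. Mutant replicate 2 was the highest and control replicate 3 the lowest, and mutant replicate 1 exceeded control replicate 1 by less than 1 FPKM. Its log2 change was 0.15 ± 0.074 (SE, limma adjusted p = 0.490). Col4a2 followed the same order of libraries at the ends, with 157, 178 and 149.8 FPKM in mutant and 157, 148 and 139 FPKM in control libraries (log2 change 0.12 ± 0.076, adjusted p = 0.596), and its groups overlapped. The ratio of Col4a1 to Col4a2 within a library was 1.46, 1.48 and 1.54 in mutant and 1.46, 1.48 and 1.44 in control libraries. The pair whose promoter windows overlap thus stood in nearly the same proportion in every library, and exact permutation gave a two-sided p of 0.3 for the ratio.

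Col4a6 (chromosome X, 141165403 to 141474076) had 2.93, 2.98 and 3.002 FPKM in mutant libraries, against 1.98, 2.16 and 1.94 FPKM in control libraries. The mutant values lay within a narrow band and entirely above the controls. The mutant mean was 1.47 times the control mean, and the log2 change was 0.39 ± 0.084 (limma adjusted p = 0.177, 95% interval 0.19 to 0.59). Its change stayed positive in all the alternatives that could be fitted, from 0.36 to 0.53, including 0.36 with the epithelial covariate and 0.38 with sex as a covariate. The gene is X-linked, the mutant group held 1 library with Xist and the control group 3, and the part of sex in its level cannot be told apart from that of genotype in the other 2 mutant libraries. These levels rest on an estimated 148 to 246 fragments per library. Its neighbour Col4a5 (chromosome X, 141475385 to 141689234) had 8.59, 8.82 and 9.39 FPKM in mutant and 7.97, 7.30 and 6.18 FPKM in control libraries, again without overlap (log2 change 0.29 ± 0.092, adjusted p = 0.325). With the epithelial covariate its change was 0.015. The ratio of Col4a5 to Col4a6 was 3.004 ± 0.107 in mutant and 3.53 ± 0.436 in control libraries (SD, n = 3 each). Col4a3 and Col4a4, under the filter and not tested, had 0.400 to 0.547 and 0.245 to 0.334 FPKM in mutant libraries and 0.259 to 0.309 and 0.138 to 0.225 FPKM in control libraries, from an estimated 16 to 44 fragments each. Together they made up under 1% of collagen IV FPKM in every library, while Col4a1 made up 58.0% ± 0.563 in mutant and 57.8% ± 0.257 in control libraries.

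Among the laminin alpha chains, Lama4, the chain of vessels, was the most abundant, at 51.4% ± 4.12 of laminin alpha FPKM in mutant and 50.3% ± 1.40 in control libraries. Lama5, the broad epithelial and vascular chain, followed at 31.2% ± 4.70 and 31.3% ± 0.722 in the same order. Lama2, the chain of muscle and Schwann cells, was at 11.3% ± 1.01 in mutant and 11.5% ± 0.359 in control libraries. Lama1, a chain of early embryonic epithelia, was the only alpha chain with a negative change. It measured 1.78, 1.67 and 1.91 FPKM in mutant libraries, against 2.34, 2.74 and 2.2 FPKM in control libraries. All mutant libraries were below all controls, with a log2 change of -0.30 ± 0.10 (limma adjusted p = 0.359). It stayed negative in all the alternatives that could be fitted, from -0.42 to -0.20, and its levels rest on an estimated 149 to 356 fragments per library.

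Lama3, the alpha chain of the epithelial anchoring laminin, measured 3.01, 3.12 and 2.74 FPKM in mutant and 2.71, 2.51 and 2.06 FPKM in control libraries, with every mutant library above every control and a log2 change of 0.21 ± 0.10 (limma adjusted p = 0.501). Its partner Lamb3 measured 11.1, 11.01 and 11.8 FPKM in mutant libraries, against 11.1, 9.61 and 8.19 FPKM in control libraries. Here control replicate 1 lay among the mutant values and control replicate 3 was lowest, and the log2 change was 0.22 ± 0.10 (adjusted p = 0.466). The ratio of Lama3 to Lamb3 was 0.262 ± 0.0266 in mutant and 0.252 ± 0.00881 in control libraries. Lamb1, Lamb2 and Lamc1, the chains of most other laminins, had log2 changes of 0.077, -0.015 and 0.076, each smaller than its SE. Lamc1 made up 88.6% ± 1.74 of the 2 gamma chains measured in mutant and 91.7% ± 1.72 in control libraries.

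Lamc3 (chromosome 2, 31887291 to 31946539), the gene of the gamma 3 chain, had the largest positive change of the tested members on the scale of FPKM + 1. By the ratio of mutant to control mean it was at 1.46, against 1.47 for Col4a6. Lamc3 measured 5.78, 6.22 and 6.43 FPKM in mutant libraries, against 4.76, 4.89 and 2.95 FPKM in control libraries. The groups did not overlap, but control replicate 3 stood well below the other two controls. The log2 change was 0.48 ± 0.15 (limma adjusted p = 0.330), and without control replicate 3 it was 0.29. With the epithelial covariate it was -0.0090. Relative to Lamc1 it was at 0.129, 0.107 and 0.151 in mutant and 0.103, 0.104 and 0.0679 in control libraries.

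Nidogens bridge laminin and collagen IV, and the 2 genes differed in their pattern. Nid2 (chromosome 14, 19751265 to 19811787) measured 29.9, 36.7 and 25.2 FPKM in mutant libraries, against 39.5, 38.6 and 40.4 FPKM in control libraries. The controls lay close together, every mutant library was lower, and mutant replicate 3 was the lowest. The log2 change was -0.38 ± 0.12 (limma adjusted p = 0.330), the most negative of the tested members on the scale of FPKM + 1. It was negative in all the alternatives, from -0.62 with the muscle covariate to -0.22 with the epithelial one. By the ratio of mutant to control mean Lama1 was lower, at 0.73 against 0.77 for Nid2. Nid1 measured 58.8, 76.3 and 55.3 FPKM in mutant and 60.9, 62.7 and 60.8 FPKM in control libraries, so that the mutant libraries lay on both sides of the controls. Its log2 change was 0.032 ± 0.11. The ratio of Nid2 to Nid1 was 0.508, 0.481 and 0.455 in mutant and 0.648, 0.616 and 0.665 in control libraries. This ratio was chosen after its values were seen. Exact permutation over the 6 libraries gave a two-sided p of 0.1, the smallest that 3 against 3 allows (0.144 adjusted over 13 ratios). Other ratios, among them Col4a5 to Col4a6 and Lamc3 to Lamc1, had the same p. It therefore says no more than that the values of the 2 groups did not overlap. Exons of Nid2 share 437 bases with Rtraf on the opposite strand, 8.45% of the Nid2 exon bases. Rtraf, listed in the files as 2700060E02Rik, had 90.5, 91.9 and 86.3 FPKM in mutant and 99.3, 96.6 and 99.9 FPKM in control libraries. The strand setting of the counting is not given, so its reads in that stretch cannot be told apart from those of Nid2. The cartilage markers moved in the same direction, with a summed level of 212 to 401 FPKM in mutant and 911 to 1124 FPKM in control libraries over 5 genes. All 5 bone markers also had negative changes, with summed levels that overlapped between groups. The part of either list in the levels of Nid2 and Lama1 was not tested.

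Of the heparan sulfate proteoglycans, Hspg2, the gene of perlecan, measured 68.7, 78.4 and 59.3 FPKM in mutant and 78.6, 69.0 and 72.1 FPKM in control libraries (log2 change -0.096 ± 0.10). Agrn, the gene of agrin, which clusters receptors at the neuromuscular junction, had the smallest SE of the tested members, with 98.4, 95.4 and 100.4 FPKM in mutant and 94.3, 100.3 and 93.0 FPKM in control libraries. Its log2 change was 0.032 ± 0.048 and its 95% interval ran from -0.081 to 0.15. Col15a1 and Col18a1, whose products carry endostatin domains and sit at the outer face of basement membranes, had log2 changes of 0.038 ± 0.13 and 0.15 ± 0.078. In Col15a1 mutant replicate 2 alone stood out, at 43.2 FPKM against 29.5 to 36.0 FPKM in the other 5 libraries.

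Both anchoring collagens had positive changes without overlap between groups. Col7a1 (chromosome 9, 108953586 to 108984875), the collagen of anchoring fibrils, measured 29.9, 28.1 and 29.4 FPKM in mutant libraries, against 25.6, 22.9 and 16.6 FPKM in control libraries. Col17a1 (chromosome 19, 47646344 to 47692094), the transmembrane collagen of hemidesmosomes, measured 34.2, 36.7 and 34.8 FPKM in mutant libraries, against 32.5, 28.1 and 21.8 FPKM in control libraries. In both genes the mutant libraries were close together and above all controls, and the controls were spread out with replicate 3 lowest. The log2 changes were 0.43 ± 0.14 and 0.36 ± 0.13 (limma adjusted p = 0.335 and 0.368). Without control replicate 3 they were 0.26 and 0.21. Itgb4, an integrin chain of hemidesmosomes, showed the same arrangement with 18.8, 18.9 and 18.7 FPKM in mutant and 18.5, 17.2 and 13.3 FPKM in control libraries (log2 change 0.21 ± 0.11, adjusted p = 0.538). Without control replicate 3 its change was 0.072, and those of Lamb3, Lama3 and Frem2 were 0.12, 0.13 and 0.036. Its partner Itga6, which also pairs with another beta chain in vessels and nerve, measured 21.98, 25.4 and 21.8 FPKM in mutant and 21.3, 21.3 and 19.9 FPKM in control libraries (log2 change 0.14 ± 0.071), without overlap.

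Markers of the surface epithelium were set beside these epithelial anchoring genes, and whether the levels vary together was not tested. Of 10 surface epithelium markers 8 had positive changes, 6 with an unadjusted limma p under 0.05 (60%, against 11.3% of all tested genes) and 0 called. Their summed level was 1226 to 1288 FPKM in mutant and 878 to 1112 FPKM in control libraries, none of them at 0. Krt5, a keratin of basal cells, measured 288, 293 and 273 FPKM in mutant and 228, 169 and 119.8 FPKM in control libraries (log2 change 0.77 ± 0.20, limma adjusted p = 0.265). Krt15 had a log2 change of 0.48 ± 0.091 (adjusted p = 0.136) and passed adjustment under 1 of the alternatives. In a bulk sample fewer cells of a type and less RNA per cell cannot be told apart. The level of the anchoring genes relative to this epithelium depended on the marker it was set against. Col7a1 relative to Krt14, the partner keratin of Krt5, was lower in every mutant library (0.208, 0.193 and 0.208) than in any control library (0.214, 0.243 and 0.262). Relative to Dsp, the gene of desmoplakin, it was 0.709 ± 0.0211 in mutant and 0.713 ± 0.0157 in control libraries, and relative to Epcam 0.333 ± 0.0387 in mutant and 0.229 ± 0.0571 in control libraries. Over the 10 markers the ratios of Col7a1 lay all above the controls for 4, all below for 2 and overlapped for 4. For Col17a1 they lay all below for 4 and overlapped for 6, and for Lamb3 and for Itgb4 they lay all below for 6 and overlapped for 4. These ratios were compared after their values were seen. With the mean of the epithelial markers as a covariate, which leaves 3 residual degrees of freedom and is itself higher in mutant, the changes of Col7a1, Col17a1, Lamb3 and Itgb4 were -0.083, -0.067, -0.11 and -0.17.

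**Figure D3:**
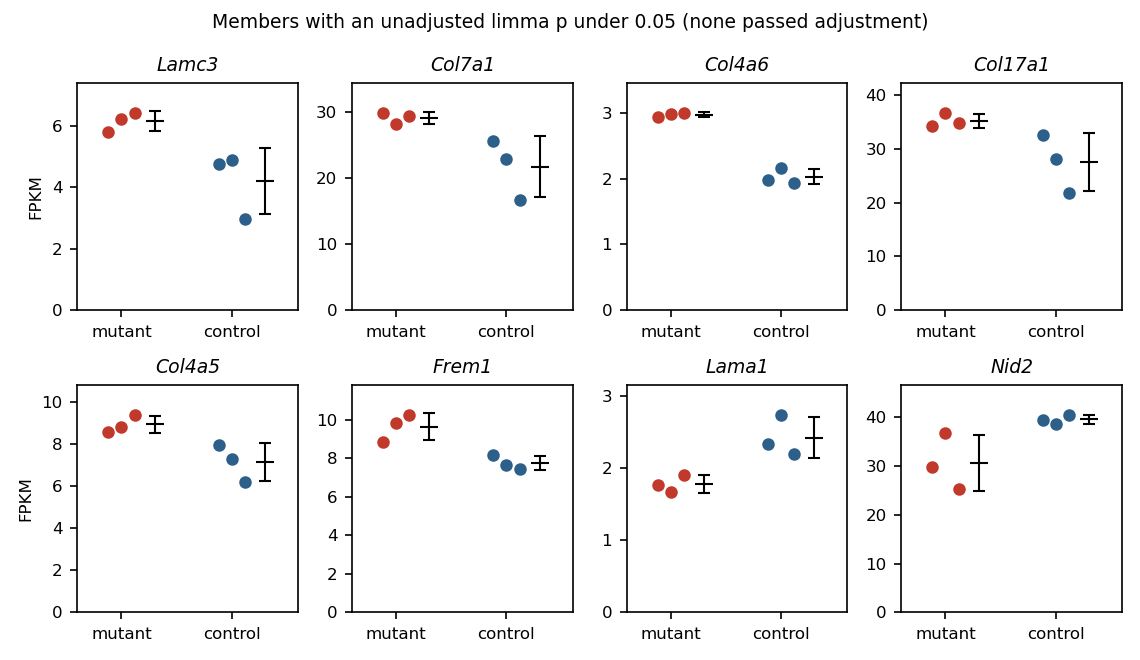
FPKM of the 8 members with an unadjusted limma p under 0.05, with each dot a library and the bar the mean ± SD of 3 libraries. Mutant and control dots do not overlap in any panel, and control replicate 3 is the lowest dot in all 6 genes that are higher in mutant.

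The Fras1, Frem1 and Frem2 proteins form a complex under embryonic epithelia that holds skin to the tissue beneath. Frem1 (chromosome 4, 82897920 to 83052339) measured 8.86, 9.82 and 10.3 FPKM in mutant libraries, against 8.16, 7.65 and 7.46 FPKM in control libraries. The groups did not overlap, and the log2 change of 0.28 ± 0.072 (limma adjusted p = 0.247) was positive in all the alternatives, from 0.17 to 0.33. Frem2 overlapped between groups, with 6.999, 7.58 and 7.50 FPKM in mutant and 7.37, 6.93 and 5.39 FPKM in control libraries. Fras1 had a negative change of -0.16 ± 0.081, with 4.42, 4.77 and 4.25 FPKM in mutant and 5.50, 5.21 and 4.70 FPKM in control libraries. Npnt, which encodes nephronectin, a ligand of the integrin alpha 8 chain, measured 84.5, 88.0 and 81.5 FPKM in mutant and 94.8, 85.2 and 92.9 FPKM in control libraries (log2 change -0.10 ± 0.057). The fitted changes of the Fras/Frem genes thus had both signs, none of them past adjustment. Dag1, the gene of dystroglycan, a laminin receptor of muscle and epithelium, had the smallest change of all, -0.0055 ± 0.072, with 52.4, 60.2 and 49.6 FPKM in mutant and 54.4, 53.5 and 54.4 FPKM in control libraries.

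A pair of libraries held most of the extreme values of the members. Mutant replicate 2 was the highest library for 15 of the 29 tested members, against 21.4% of all tested genes, and control replicate 3 was the lowest for 17, against 16.3% of all tested genes. Mutant replicate 3, the shallowest library, was the lowest for 10 members (19.5% of all tested genes) and the highest for 6 (18.5%). The members highest in mutant replicate 2 were Col4a1, Col4a2, Lama2, Lama3, Lama4, Lamb1, Lamc1, Nid1, Col15a1, Col18a1, Col17a1, Frem2, Dag1, Itga6 and Itgb4. In the same library the 10 skeletal muscle markers summed to 1386 FPKM, against 735 and 544 FPKM in the other mutant and 365 to 616 FPKM in control libraries. All 10 had positive changes, 5 with an unadjusted limma p under 0.05 (50%, against 11.3% of all tested genes) and 0 called. Mylpf, a myosin light chain, measured 287 ± 129 FPKM in mutant and 154 ± 34.1 FPKM in control libraries, and Acta1, skeletal muscle actin, 246 ± 136 and 144 ± 41.1 FPKM in the same order. Endothelial markers summed to 308 FPKM in mutant replicate 2, against 269 and 266 FPKM in the other mutant and 249.5 to 277 FPKM in control libraries, with 9 of 10 changes positive. Egfl7 and Eng, their 2 most abundant genes, were at 48.5 ± 4.60 and 40.1 ± 6.14 FPKM in mutant and 43.2 ± 1.59 and 39.7 ± 2.39 FPKM in control libraries. Schwann cell markers summed to 90.7 FPKM in mutant replicate 2, against 63.7 and 60.7 FPKM in the other mutant and 57.7 to 67.0 FPKM in control libraries, with 6 of 7 positive. Of these, Erbb3 and Sox10 were at 20.1 ± 1.84 and 16.2 ± 2.49 FPKM in mutant and 17.04 ± 1.24 and 16.1 ± 1.61 FPKM in control libraries. Pericyte and smooth muscle markers summed to 309.7 FPKM there, against 265 and 266 FPKM in the other mutant and 244 to 267 FPKM in control libraries, with 8 of 9 positive. Acta2 and Pdgfrb were at 78.1 ± 14.7 and 56.1 ± 4.53 FPKM in mutant and 61.0 ± 6.32 and 55.7 ± 2.84 FPKM in control libraries. None of these lists held a called gene or a marker at 0 in any library. Of these lists only that of skeletal muscle was fitted as a covariate, and the part of these cell types in the members' levels was not tested. Without mutant replicate 2 the changes of Lamb1, Lamc1, Nid1 and Col15a1 became -0.046, -0.060, -0.11 and -0.12, and with the muscle covariate -0.16, -0.14, -0.18 and -0.25.

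**Figure D4:**
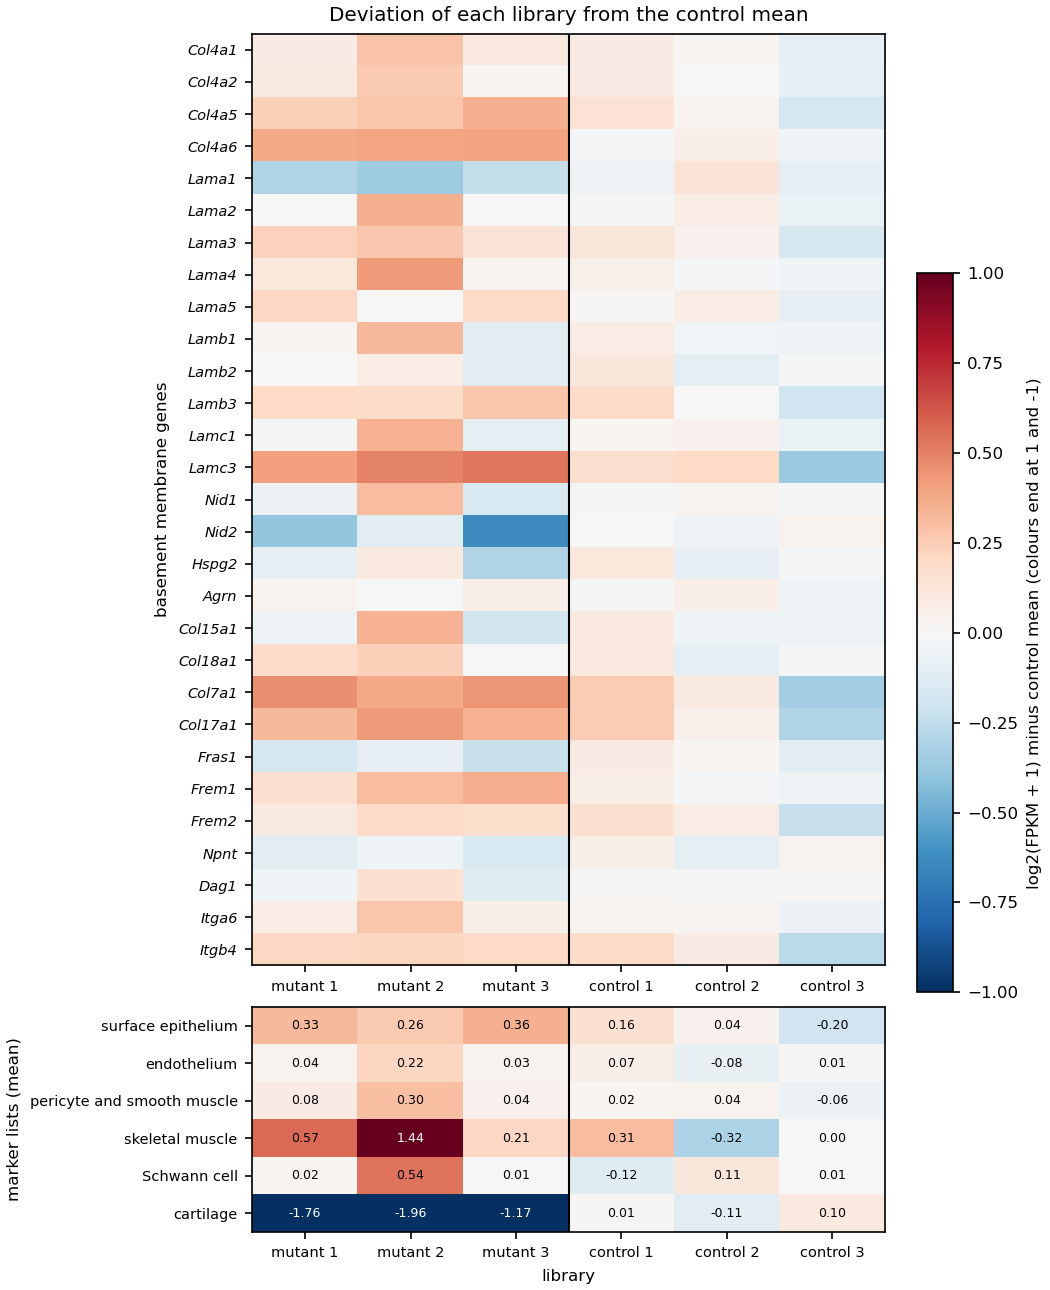
Deviation of each library from the control mean in log2(FPKM + 1) for the 29 tested members (upper panel) and the mean of 6 marker lists (lower panel, values printed), mutant libraries left of the line and control libraries right. Mutant replicate 2 is red for many members and for the muscle list (1.44), and control replicate 3 is blue for Col7a1, Col17a1, Lamc3 and Itgb4 and for the surface epithelium list (-0.20).

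**Figure D5:**
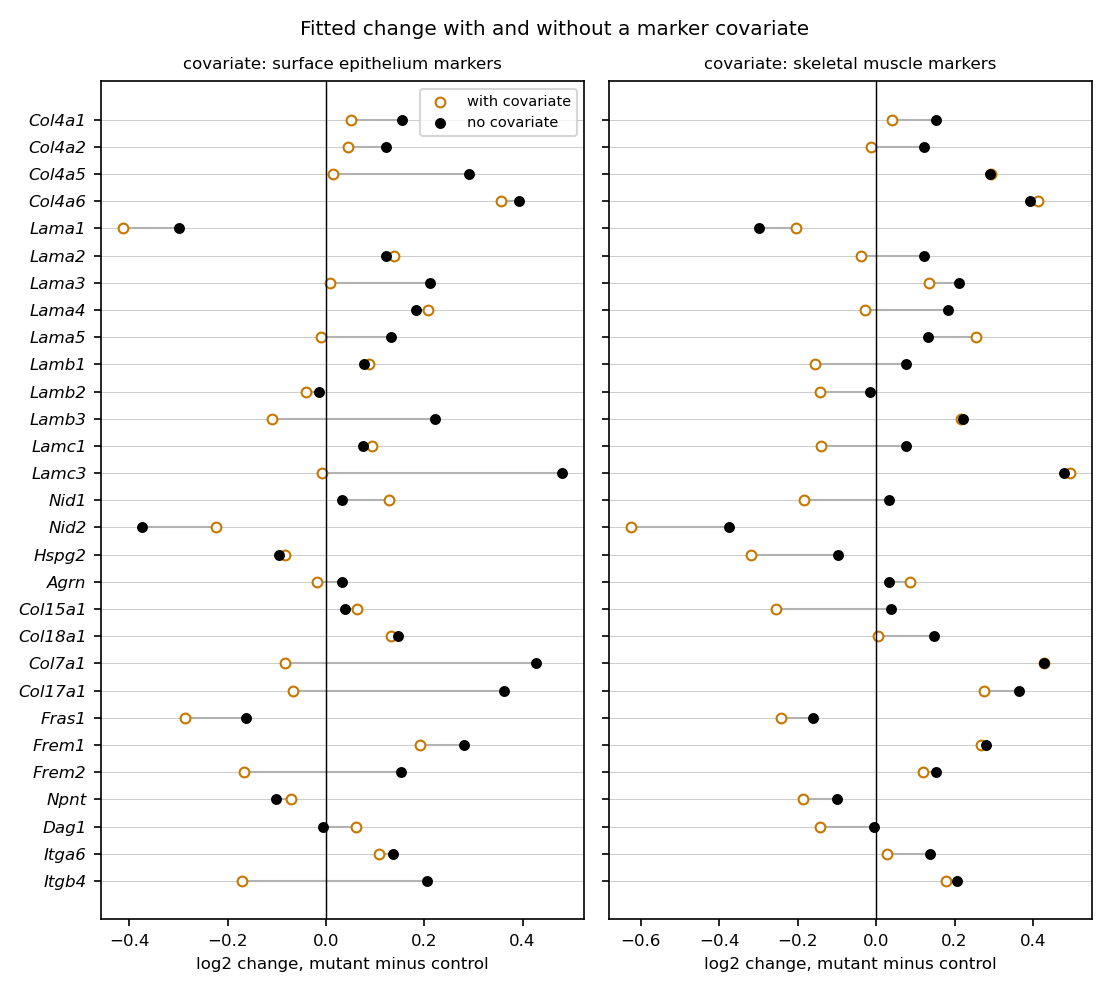
Fitted log2 change of each tested member, mutant minus control, without a covariate (black) and with the mean of the surface epithelium (left) or skeletal muscle markers (right) as a covariate (open circles). With the epithelial covariate Col7a1, Col17a1, Lamc3, Lamb3 and Itgb4 move to -0.083, -0.067, -0.0090, -0.11 and -0.17. Col4a6 moves from 0.39 to 0.36 and Lama1 from -0.30 to -0.41.

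Other genes that build, bind or modify basement membranes were also tested, as 3 lists with 44 genes in the files. None was called over all tested genes (0.264% of which were), and 4 were higher and 3 lower at an unadjusted p under 0.05 (15.9%, against 11.3% of all tested genes). Groups did not overlap for 8 above and 2 below (22.7%, against 17.0%). In the list of assembly factors and associated matrix, 11 of 17 changes were positive and the median was 0.058. Plod3, which hydroxylates and glycosylates collagen lysines, measured 36.1, 36.0 and 34.9 FPKM in mutant and 41.7, 37.4 and 41.7 FPKM in control libraries (log2 change -0.17 ± 0.056, limma adjusted p = 0.335). Sparc, a collagen-binding protein abundant in bone, had 1626 ± 39.0 FPKM in mutant and 1921 ± 233 FPKM in control libraries (adjusted p = 0.428). Among 12 laminin receptors and hemidesmosome genes 9 changes were positive (median 0.14). Lad1, the gene of ladinin, an anchoring filament protein of the epithelial basement membrane, measured 16.9, 15.9 and 15.4 FPKM in mutant and 14.7, 12.6 and 12.8 FPKM in control libraries (log2 change 0.25 ± 0.073, adjusted p = 0.289). Itga8, the integrin chain that binds nephronectin, measured 11.4, 12.3 and 11.96 FPKM in mutant and 9.49, 10.7 and 9.90 FPKM in control libraries (log2 change 0.22 ± 0.065, adjusted p = 0.289), a change of opposite sign to that of Npnt. In the list of 15 genes of the dystroglycan complex and its glycosylation 11 changes were positive, with a median of 0.046. Sgca, a sarcoglycan of muscle, measured 3.33, 3.87 and 1.99 FPKM in mutant and 2.35, 1.74 and 1.96 FPKM in control libraries (log2 change 0.40 ± 0.19, limma adjusted p = 0.478), with mutant replicate 2 highest and the groups overlapping.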

How the data were processed

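Messenger RNA of 3 mutant and 3 control libraries was compared, grouped by the genotype label. RNA was obtained with TRIzol, and a stranded TruSeq kit gave the libraries, per the labels' protocols. The authors deposited FPKM values, 1 per gene symbol and library, per the file headers. The submitters' processing notes list Cuffdiff 2.2.1, SAMtools 0.1.18, Bowtie2 2.2.8, TopHat2 2.1.1 and build mm10. Of the annotation, filters, strand setting and scaling between libraries the sources used here say nothing.

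Since FPKM is normalized, count models were not applied. The 14766 genes whose mean reached 1 FPKM were analysed as log2(FPKM + 1) by limma 3.58.1 in R 4.3.3 (trend, two-sided, 4 residual degrees of freedom), p-values being adjusted by Benjamini-Hochberg across those 14766 genes (threshold 0.05). Log2 changes are mutant minus control and understate changes of low genes. The fit was tested on simulated data. Relative library sizes came from the spacing of low values, and fragment numbers from the annotated length of 193 genes with 1 transcript (12300000 in control replicate 1), so fragment numbers are estimates. Fragments of a member are its FPKM times the longest annotated transcript and that depth.

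Positions are from GENCODE M21 on GRCm38, the coordinates of mm10, and promoters from RefSeq on GRCm38.p6. All members are named. Of each other basement membrane list the 2 genes of smallest p are named, and of each marker list the called genes or, with none called, the 2 most abundant. Other marker genes and ratios were chosen after their values were seen. Members and lists were chosen with earlier results of these data known. One listed gene, Hmcn2, is not analysed here. One gene that the naming rule selects is not reported here. Alternatives were other pseudocounts, filters, scalings, eBayes settings, library weights, a looser threshold, covariates (sex, 2 marker lists) and leaving out each library.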

Additional observations from a re-analysis of the deposited data

How the results depend on the processing

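No member and none of the 44 other basement membrane genes was called under any of 19 alternatives, and the smallest adjusted p of a member was 0.0784, for Col4a6 without trend. The count of all genes called was 39. It became 18 with no filter, 19 without trend, 71 with library weights, 80 at an adjusted p under 0.1, 10 with sex, 2 with surface epithelium and 5 with skeletal muscle markers as a covariate, and 17 to 44 when 1 library was left out. Over the tested members and alternatives, 486 log2 changes kept their sign and 32 did not. All 4 called cartilage genes stayed negative. With the muscle covariate the change became -0.014 for Col4a2, -0.040 for Lama2, -0.029 for Lama4, -0.16 for Lamb1, -0.14 for Lamc1, -0.18 for Nid1, -0.25 for Col15a1 and -0.24 for Acta1. With the epithelial covariate it became -0.0098 for Lama5, -0.11 for Lamb3, -0.0090 for Lamc3, -0.018 for Agrn, -0.083 for Col7a1, -0.067 for Col17a1, -0.17 for Frem2, -0.17 for Itgb4 and 0.061 for Dag1. With sex as a covariate it became -0.022 for Lamc1, -0.062 for Nid1 and -0.054 for Col15a1, and with library weights -0.0067 for Nid1 and -0.0034 for Col15a1. Quantile normalization gave 0.0062 for Lamb2 and 0.016 for Dag1. Leaving out 1 library gave ranges of -0.046 to 0.17 for Lamb1, -0.065 to 0.041 for Lamb2, -0.060 to 0.16 for Lamc1, -0.11 to 0.12 for Nid1, -0.19 to 0.0047 for Hspg2, -0.12 to 0.15 for Col15a1 and -0.084 to 0.053 for Dag1. The cause of these shifts was not tested. No paired analysis was possible because the labels give no replicate numbers: those used here follow accession order and only name the libraries. Depth limits Col4a3 and Col4a4 most.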

Other observations

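The surface epithelium marker list held genes of different behaviour. Krt5, Krt14, Krt15, Trp63, Perp and Dsp, genes of basal and stratified epithelium, were each higher in every mutant library than in every control library. Of all tested genes 7.85% had this order. Krt14 measured 144, 146 and 141 FPKM in mutant and 119.9, 94.0 and 63.5 FPKM in control libraries. Trp63, a transcription factor of basal cells, measured 15.3, 16.9 and 17.6 FPKM in mutant and 14.1, 12.5 and 9.53 FPKM in control libraries. Epcam, Cdh1, Krt8 and Krt18, which simple epithelia such as nasal respiratory lining also express, overlapped between groups. Krt8 measured 165, 141 and 178 FPKM in mutant and 157, 166 and 158 FPKM in control libraries, and Epcam 90.1, 75.4 and 99.2 FPKM in mutant and 88.2, 105 and 93.3 FPKM in control libraries. None of the 10 was called in the main fit (limma adjusted p from 0.136 to 0.993). Krt15 passed under 1 of the alternatives, with a limma adjusted p of 0.0257. The split was seen in the values and was not tested.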
